A study of Homo sapiens with 6 samples.

Results

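SOX8, SOX9 and SOX10 are the 3 members of the SOXE group of SOX transcription factors. They were taken by gene identifier from a table of 23284 genes measured while human embryonic stem cells were turned into neural crest cells, and all 3 were present. Every group was grown from WA01 (H1), a long-established line of human embryonic stem cells, and is labelled wildtype. The 6 libraries of poly-adenylated RNA fall into embryonic stem cells (ES, day 0), pre-neural crest cells (preNC, day 3) and neural crest cells (NC, day 5), with 2 libraries each. The labels give the same culture for every library, the ES libraries included: Accutase-digested colonies plated at 20000 cells per cm2 on Matrigel in DMEM/F12 with 2% B27, Glutamax and 0.5% bovine serum albumin, with 3 µM CHIR 99021 and, over the opening days, 10 µM Y-27632. CHIR 99021 inhibits the kinase GSK3 and so activates WNT signalling, and Y-27632 inhibits the kinase ROCK. They name no other line and no separate cultures, so p-values may measure only technical spread.

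SOXE proteins bind DNA as single molecules or as pairs through an HMG box, and pairing uses a stretch of protein that this group shares. In vertebrate embryos they are switched on as the neural crest forms at the border of the neural plate. SOX9 is best known for cartilage formation and testis development, and its loss in humans causes campomelic dysplasia. SOX10 keeps crest cells multipotent and later drives glia, melanocytes and enteric neurons, and its mutations cause forms of Waardenburg syndrome. SOX8 overlaps both in function, and in the frog Xenopus it takes part in early crest induction.

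The members carry closely related HMG boxes, and reads from the shared stretches could be assigned to the wrong gene. The coding stretch of the box is therefore given for each member, in lower case with capitals where the 3 members are not all alike. It was located by the conserved start of the box, comes from GENCODE transcripts of GRCh38, runs in the direction of transcription and is 237 bases long. The SOX8 stretch covers coding bases 304 to 540, the SOX9 stretch 313 to 549 and the SOX10 stretch 310 to 546.
SOX8: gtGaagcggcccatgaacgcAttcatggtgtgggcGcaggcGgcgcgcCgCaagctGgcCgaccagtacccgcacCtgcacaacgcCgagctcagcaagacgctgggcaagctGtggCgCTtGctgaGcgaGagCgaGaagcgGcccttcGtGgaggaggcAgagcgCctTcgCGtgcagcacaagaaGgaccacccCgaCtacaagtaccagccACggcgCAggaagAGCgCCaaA
SOX9: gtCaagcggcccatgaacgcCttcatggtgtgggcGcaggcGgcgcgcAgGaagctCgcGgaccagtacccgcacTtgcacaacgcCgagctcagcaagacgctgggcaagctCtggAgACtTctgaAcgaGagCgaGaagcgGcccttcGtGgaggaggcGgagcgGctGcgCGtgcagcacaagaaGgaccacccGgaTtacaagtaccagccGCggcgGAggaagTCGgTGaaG
SOX10: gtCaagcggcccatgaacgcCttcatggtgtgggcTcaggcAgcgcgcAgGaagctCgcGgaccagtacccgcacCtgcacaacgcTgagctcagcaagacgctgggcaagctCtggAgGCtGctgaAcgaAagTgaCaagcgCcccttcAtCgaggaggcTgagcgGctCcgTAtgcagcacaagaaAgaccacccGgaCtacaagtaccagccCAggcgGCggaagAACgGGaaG
In each gene an exon boundary follows base 119 of the stretch. All 3 members had the same base at 197 of 237 positions (83.1%). SOX9 and SOX10 were identical at 89.5% of positions, SOX8 and SOX9 at 89.0%, and SOX8 and SOX10 at 85.2%. Most differences fell on the third base of a codon, 17 of 25 between SOX9 and SOX10 and 25 of 35 between SOX8 and SOX10. The longest identical run of the whole transcripts was 45 bases between SOX9 and SOX10, not wholly inside the printed stretch, against 37 bases between SOX8 and SOX9 and 26 bases between SOX8 and SOX10. Of the 3025 stretches of 25 bases in the SOX8 transcript, 27 also occurred in SOX9 and 4 in SOX10. Of the 3911 in SOX9, 48 occurred in SOX10, of which 28 lay inside the printed stretch. Exact sharing was thus limited to a small part of each transcript. The read length is not given in the sources used here, so how the authors' counting treated these bases was not tested.

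The level of each gene is given as FPKM, a fragment count scaled for the length of the transcript and the size of the library, so that genes can be set side by side. The table holds 1 FPKM value per gene and group with the libraries combined, so no spread between libraries could be given and the depth is unknown. On the log2 scale, the number after ± is a standard error implied by the ratio and the test statistic. A gene was called where its q in the authors' deposited table was below 0.05. In bulk RNA, fewer cells that express a gene and less RNA per cell cannot be told apart.

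The labelled cell types were checked against markers. All 6 embryonic stem cell markers fell between day 0 and day 5, with summed FPKM values of 1990, 209 and 72.4 on days 0, 3 and 5. Of 10 neural crest markers, 4 stood at an FPKM of at least 1 on day 0, 6 on day 3 and 9 on day 5, with summed values of 46.8, 33.2 and 111. By the calls, 5 of 10 tested rose and 1 fell in NC against ES cells (12.2% and 14.7% of all tested genes). In NC against preNC cells 7 of 10 rose (5.93% of all). In preNC against ES cells 5 of 8 rose and 3 fell (8.96% and 11.6% of all). The 5 that rose in NC against ES cells were PAX3, PAX7, TFAP2A, TFAP2B and SNAI2. Between day 0 and day 5 PAX3 went from 0.253 to 39.9 and PAX7 from 0.0383 to 9.31. TFAP2A, which overlaps LOC100130275 in the table, went from 0.108 to 11.8, TFAP2B from 0.0190 to 4.57 and SNAI2 from 0.628 to 8.24. The marker that fell over the whole course was ERBB3, at 3.22 in NC cells and 12.8 in ES cells. The marker under an FPKM of 1 on day 5 was TWIST1, a bHLH factor of mesenchymal crest, at 0.474. The crest markers FOXD3 and ETS1 were already at 17.9 and 7.27 on day 0.

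All SOXE genes were detected at a low level on day 0, stood higher on each later day, and ended with SOX9 far above the other two. The summed SOXE level was 7.57, 11.9 and 29.7 FPKM on days 0, 3 and 5. SOX9 contributed 67.9% of the gain between day 0 and day 5. Its share of the sum on those days was 41.5%, 37.6% and 61.1%. SOX8 held 34.5%, 30.0% and 17.6%, and SOX10 held 24.1%, 32.4% and 21.3%. Of 14430 genes at an FPKM of at least 1 on any day, 23.6% likewise stood higher on each later day, so that order by itself was common.

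**Figure D1:**
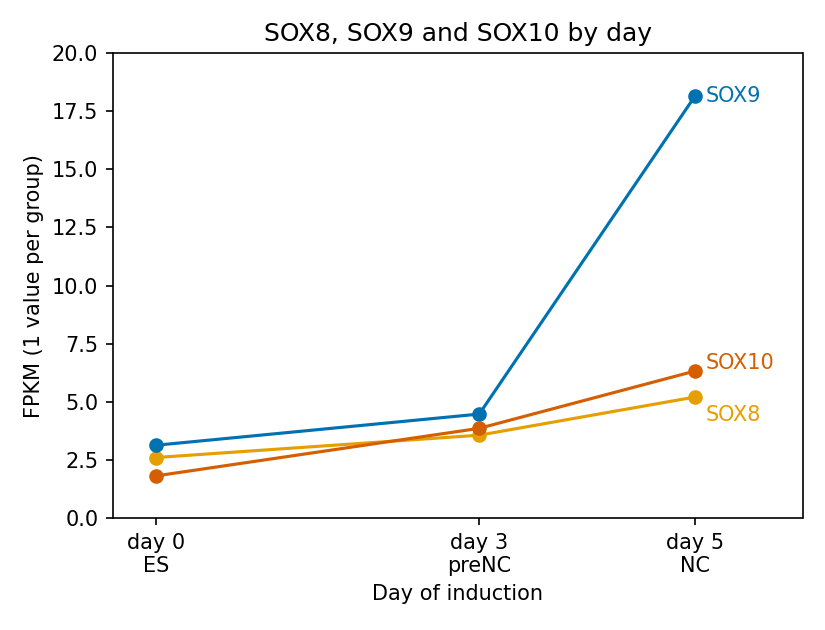
FPKM of SOX8, SOX9 and SOX10 (vertical axis) on day 0 (ES), day 3 (preNC) and day 5 (NC), 1 point per gene and group with no error available. The genes lie between 1.82 and 4.48 on days 0 and 3, and SOX9 stands at 18.1 on day 5.

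Set against all genes, only SOX10 of the 3 members was called in preNC against ES cells, as higher, where 8.96% of 16231 tested genes were called higher and 11.6% lower. Only SOX9 was called in NC against preNC cells, as higher, where 5.93% of 15932 were called higher and 6.68% lower. All 3 members were called higher in NC than in ES cells, where 12.2% of 16409 were called higher and 14.7% lower. These comparisons share groups and so are not independent of each other. No member was called lower in any of them. Whether the members differ from each other in their change was not tested, since the table has no values per library.

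SOX9, the cartilage and testis factor, was at 3.14 FPKM on day 0, 4.48 on day 3 and 18.1 on day 5. The values for days 0 and 3 lie close together and the value for day 5 stands apart, so that 91.1% of its gain came after day 3. NC cells were 4.05-fold higher than preNC cells (log2 2.02 ± 0.42, q = 0.000596 in the authors' deposited table) and 5.77-fold higher than ES cells (log2 2.53 ± 0.44, with the same q in the authors' deposited table). That q is the smallest the table holds. Between preNC and ES cells the log2 ratio was 0.51 ± 0.45, without a call (q = 0.296 in the authors' deposited table). In all, 10824, 9858 and 4535 genes had a higher FPKM than SOX9 on days 0, 3 and 5. SOX9 lies on chromosome 17 at 70117161 to 70122560 (hg19).

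SOX10, the crest and glial factor, was at 1.82 FPKM on day 0, 3.87 on day 3 and 6.33 on day 5. This gene was the lowest member on day 0 and passed SOX8 by day 3. It was the only member called in the opening step, where preNC cells were 2.12-fold higher than ES cells (log2 1.09 ± 0.41, q = 0.0469 in the authors' deposited table). That call lay just inside the threshold and was lost when the statistic was given a normal distribution (recomputed q = 0.0585, not that of the authors' deposited table). NC cells were 1.64-fold higher than preNC cells without a call (log2 0.71 ± 0.43, q = 0.215 in the authors' deposited table). Over the whole course NC cells were 3.47-fold higher than ES cells (log2 1.80 ± 0.46, q = 0.0011 in the authors' deposited table). Its gain was spread over both steps, with 54.6% after day 3. SOX10 lies on chromosome 22 at 38368319 to 38380539.

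SOX8, which acts beside both, was at 2.61 FPKM on day 0, 3.57 on day 3 and 5.21 on day 5. SOX8 had the smallest change of the group. Neither step was called, with log2 ratios of 0.45 ± 0.39 for preNC against ES cells (q = 0.464 in the authors' deposited table) and 0.54 ± 0.39 for NC against preNC cells (q = 0.317 in the authors' deposited table). NC cells were 2.00-fold higher than ES cells (log2 1.00 ± 0.41, q = 0.0387 in the authors' deposited table). This call too was lost when the statistic was given a normal distribution (recomputed q = 0.0896, not that of the authors' deposited table). SOX8 lies on chromosome 16 at 1031808 to 1036979.

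**Figure D2:**
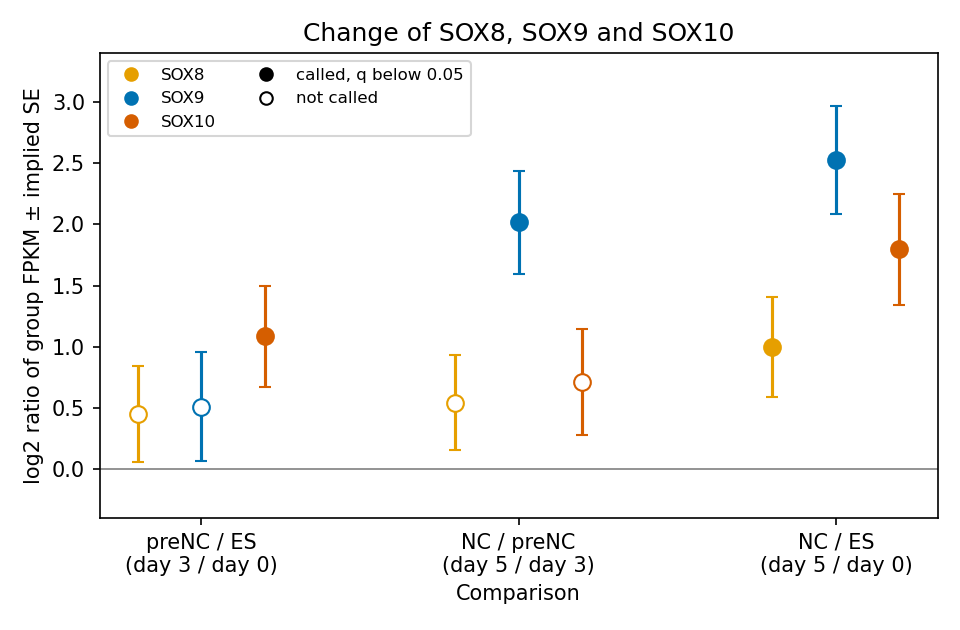
Log2 ratio of group FPKM (vertical axis, later over earlier day) of the members in the 3 comparisons. Bars are the implied standard error, filled points are called at a q below 0.05 and open points are not. SOX9 stands at 2.02 for NC over preNC cells and 2.53 for NC over ES cells, and every point lies above 0.

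The order of the members by level changed over time. On day 0 the order was SOX9, SOX8 and SOX10, and the highest stood at 1.72 times the lowest. On day 3 it was SOX9, SOX10 and SOX8, within a factor of 1.25. On day 5 it was again SOX9, SOX10 and SOX8, but SOX9 was at 2.87 times SOX10 and 3.48 times SOX8, while SOX10 was at 1.21 times SOX8. No error was available for these ratios between genes, so the order of neighbours could not be tested.

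Among the 19 SOX genes listed, the SOXE genes were not the most abundant on any day. By FPKM, SOX9 ranked 9 on day 0, 11 on day 3 and 6 on day 5. SOX10 ranked 11, 12 and 8 on those days, and SOX8 ranked 10, 13 and 11. Of the 16 other SOX genes only the SOXD genes SOX5 and SOX6 likewise stood higher on each later day. For NC against ES cells, 3 of 13 tested other SOX genes rose and 1 fell (12.2% and 14.7% of all tested genes). For NC against preNC cells 1 rose and 6 fell of 13 (5.93% and 6.68% of all). For preNC against ES cells 5 rose and 1 fell of 12 (8.96% and 11.6% of all).

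The SOXB genes, which maintain neural and pluripotent progenitors, peaked on day 3 apart from SOX3 and SOX14. SOX2 was at 203 FPKM on day 0, 341 on day 3 and 129 on day 5, and overlaps the noncoding gene SOX2-OT in the table. SOX2 fell in NC against preNC cells (log2 -1.40 ± 0.42). SOX21, which counteracts other SOXB proteins in neural progenitors, was at 8.38, 91.0 and 5.57, and SOX1, a marker of committed neural cells, was at 0.985, 19.2 and 1.46. Both rose in preNC against ES cells and fell in NC against preNC cells. SOX3, another SOXB progenitor factor, was at 37.0, 17.6 and 10.1 and fell in NC against ES cells (log2 -1.87 ± 0.32). SOX14 reached at most 0.0662. Thus SOX9 was called higher in the step in which SOX1, SOX2 and SOX21 were called lower.

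The SOXC genes act in progenitors and young neurons and stood above every SOXE gene on each day. SOX11 was at 17.8, 56.9 and 49.7 FPKM on days 0, 3 and 5 and rose in preNC against ES cells (log2 1.67 ± 0.43). SOX4 (59.4, 41.0 and 49.4) and SOX12 (28.4, 39.1 and 37.3) were called in no comparison. The SOXD proteins SOX5 and SOX6 act with SOX9 on cartilage genes. SOX5 was at 0.289, 5.09 and 6.13 and rose in preNC against ES cells (log2 4.14 ± 0.57), while SOX6 reached only 0.445 on day 5. SOX13, the third SOXD gene, was at 33.9, 42.9 and 23.2 and fell in NC against preNC cells. Of the remaining groups, SOX18, a vascular factor, peaked at 1.43 on day 3. SOX15, which overlaps MPDU1 in the table, was at 16.4, 5.20 and 2.70 without a call. SOX7, SOX17 and SOX30 stayed below 1 on every day.

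**Figure D3:**
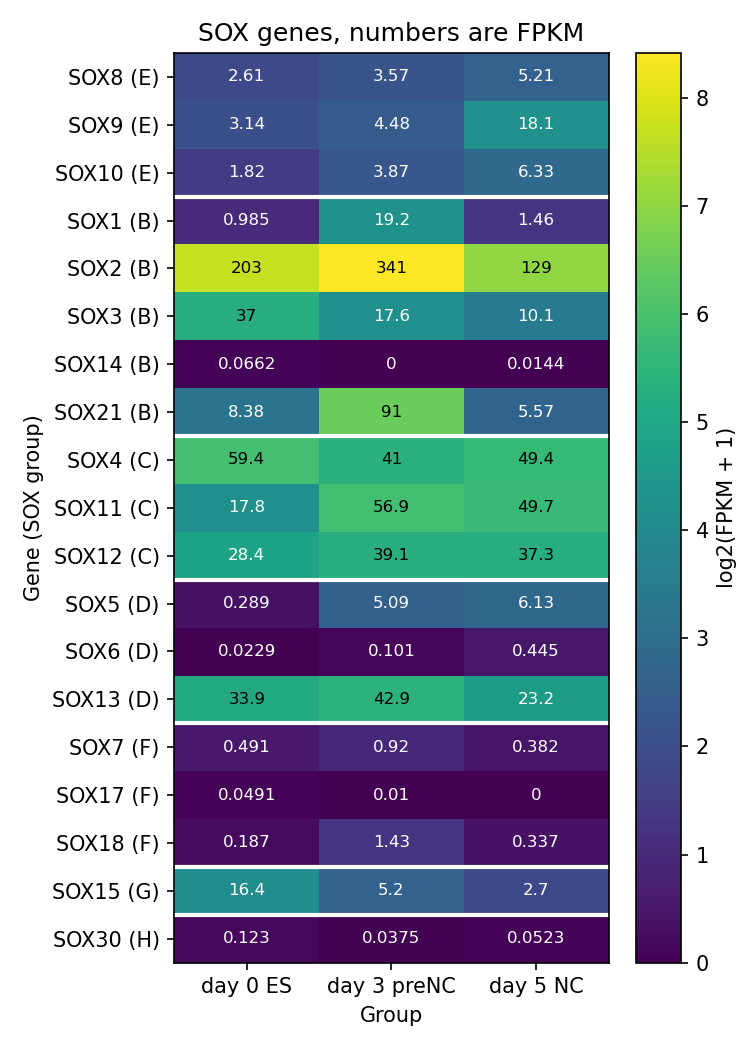
FPKM of 19 SOX genes (rows, with the SOX group in brackets) on day 0, day 3 and day 5 (columns), colour giving log2(FPKM + 1) and numbers giving FPKM. The SOXE rows lie between 1.82 and 3.14 on day 0 and between 5.21 and 18.1 on day 5, while SOX1 and SOX21 peak on day 3.

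A list of 21 regulators of the neural plate border and crest was set beside the members. It was chosen with earlier results of these data known, so its counts are a description and not a test. The list shares FOXD3, TFAP2A, TFAP2B, PAX3, PAX7, SNAI2, ETS1 and TWIST1 with the crest markers above, so the 2 sets of counts overlap. In NC against preNC cells, 14 rose and 2 fell of 21 tested, against a background of 5.93% higher and 6.68% lower. The median change of the list was 2.24 in log2(FPKM + 1), against -0.04 for all tested genes. On the same scale SOX9 changed by 1.80, SOX10 by 0.59 and SOX8 by 0.44. SOX9 thus lay a little under the list's median, and the other members lay further below it.

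Several border genes had larger log2 ratios than any SOXE gene. PAX3, a paired-box border factor that acts with SOX10 on melanocyte genes, was at 0.253 FPKM on day 0, 3.36 on day 3 and 39.9 on day 5. PAX3 overlaps CCDC140 in the table, so its value is uncertain. The homeobox factors MSX1 (0.503, 4.41 and 73.2) and MSX2 (0.405, 2.21 and 40.8) rose in both steps. LMX1A, a LIM homeobox factor of the dorsal neural tube, was at 0.101, 1.91 and 46.8. The nuclear receptors NR2F1 (0.234, 3.89 and 74.8) and NR2F2 (0.161, 5.22 and 39.0, overlapping MIR1469) also rose in both steps. In preNC against ES cells 12 of 19 tested regulators rose and 4 fell (median 0.93, with 8.96% and 11.6% of all tested genes called), and in NC against ES cells 13 of 21 rose and 4 fell (median 2.45, with 12.2% and 14.7% of all called).

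The zinc finger gene SNAI2, which acts in crest emigration and is a known partner of SOX9 in chick, was at 0.628 FPKM on day 0, 4.18 on day 3 and 8.24 on day 5. FOXD3 and ETS1, crest factors that act upstream of SOX10 in zebrafish or chick, both stood lowest on day 3. FOXD3 was at 17.9, 0.876 and 15.4, and ETS1 at 7.27, 1.11 and 6.14. Both fell in preNC against ES cells and rose in NC against preNC cells. SOX10 was called higher in the step in which both fell. MYC (39.9, 8.34 and 5.43) and MYB (3.04, 1.25 and 0.786), also regulators of early crest, fell in preNC against ES cells.

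**Figure D4:**
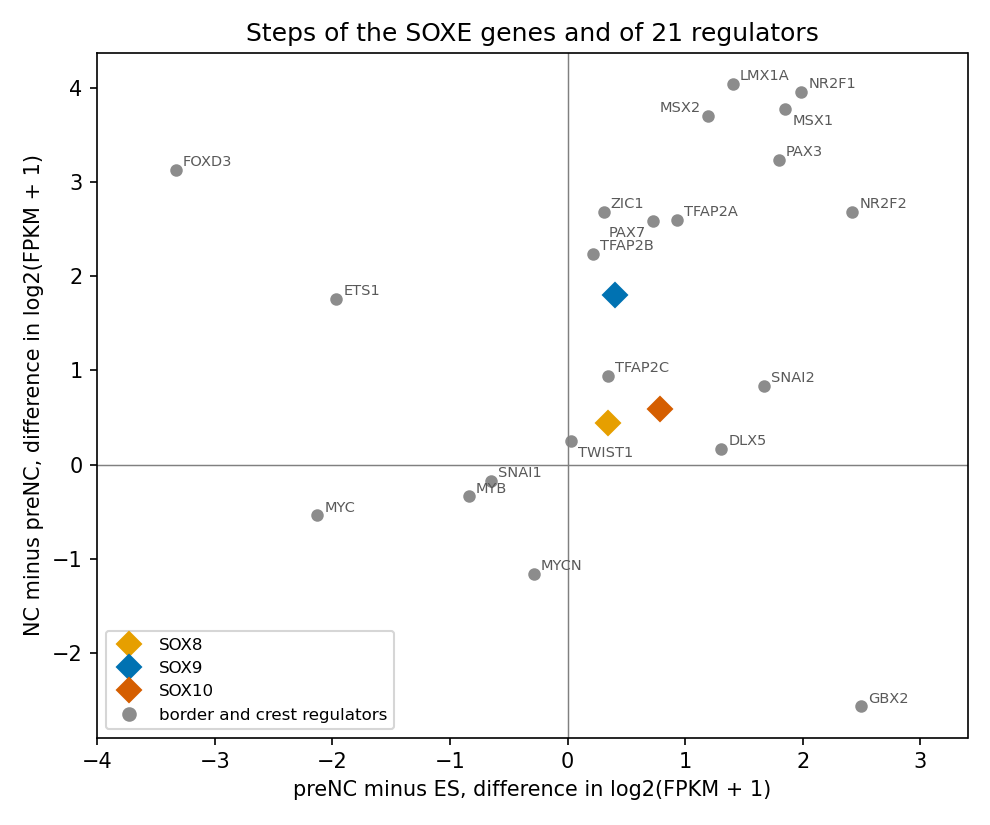
Difference in log2(FPKM + 1) between preNC and ES cells (horizontal axis) and between NC and preNC cells (vertical axis) for 21 border and crest regulators (grey) and the SOXE genes (diamonds). SOX9 lies at 0.40 and 1.80, SOX10 at 0.79 and 0.59 and SOX8 at 0.34 and 0.44.

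Of 20 tested cofactors and modifiers of SOXE proteins, 4 rose, 1 fell and 15 were not called in NC against ES cells. Among all tested genes 12.2% were higher and 14.7% lower, with 27% called in either direction. The share called in either direction was close to that of all genes. The counts by direction are small, and their difference from the shares of all genes was not tested. The median change of the list in log2(FPKM + 1) was 0.10, against -0.01 for all tested genes. In preNC against ES cells 5 rose and 1 fell of 19 (8.96% and 11.6% of all tested genes), and in NC against preNC cells 3 rose and 2 fell of 20 (5.93% and 6.68% of all). The general coactivators EP300 (21.6, 21.3 and 17.0 FPKM on days 0, 3 and 5) and CREBBP (9.76, 14.8 and 11.1) had no call. FBXW7, which marks SOX9 and SOX10 for degradation, was at 5.55, 5.56 and 7.29, also without a call. Those that rose in NC against ES cells were SOX5, SOX6, PAX3 and POU3F2. Of these, SOX5, SOX6 and PAX3 are also counted in other lists here. POU3F2, a POU factor that can act with SOX10, was at 0.241, 7.20 and 10.7. Its relative POU3F1, a factor of Schwann cell maturation, was at 19.8, 60.9 and 15.6 and fell in NC against preNC cells. EGR2, which SOX10 activates in myelinating glia, was at 1.89, 0.547 and 0.422 and fell in NC against ES cells. KPNB1, an import receptor of SOX9, fell in NC against preNC cells, with 115 FPKM in NC cells and 202 in preNC cells.

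Among genes that SOX9 activates in cartilage, several collagen genes rose, while ACAN, MATN1 and COMP stayed near 0. Of 11 tested cartilage genes, 6 rose and 1 fell in NC against ES cells, where 12.2% of all tested genes were higher and 14.7% lower. The median change was 1.00 in log2(FPKM + 1), against -0.01 for all tested genes. In preNC against ES cells 6 rose and 2 fell of 10 (8.96% and 11.6% of all), and in NC against preNC cells 4 rose and 1 fell of 11 (5.93% and 6.68% of all). When the statistic was given a normal distribution, 3 rose and 2 fell in preNC against ES cells. COL2A1, the type II collagen chain and classic SOX9 target, was at 4.89 FPKM on day 0, 34.6 on day 3 and 123 on day 5. COL2A1 was 25.1-fold higher in NC than in ES cells (log2 4.65 ± 0.45). It also rose in preNC against ES cells (log2 2.82 ± 0.43), the step in which SOX9 was not called. COL9A2 was at 1.67, 7.47 and 15.8, COL11A1 at 5.04, 9.37 and 16.5, and HAPLN1, a link protein of the matrix, at 0.249, 1.01 and 4.52. FGFR3, a growth plate receptor, was at 8.74, 41.3 and 33.9, and COL27A1, which overlaps MIR455, at 4.23, 9.36 and 7.34. COL9A1 (7.92, 9.81 and 8.12) had no call, and COL9A3 (44.6, 23.2 and 21.4, overlapping TCFL5) fell in preNC against ES cells. The gene that fell in NC against ES cells was LECT1 (chondromodulin), with 3.39 FPKM in NC cells and 150.1 in ES cells. ACAN, MATN1 and COMP, which mark differentiated cartilage, reached at most 0.153. COL2A1 and the other collagens are also made by other embryonic tissues.

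Of the testis programme, 2 of 4 tested genes rose and none fell in NC against ES cells, where 12.2% of all tested genes were higher and 14.7% lower. The median was -0.03 in log2(FPKM + 1), against -0.01 for all. Of 4 tested in preNC against ES cells 3 rose (8.96% of all), and in NC against preNC cells 1 fell of 3 (6.68% of all). Of 8 partners and targets of SOX9 in the gonad, 7 lay under an FPKM of 1 on every day. The exception was AMH, anti-Müllerian hormone, at 8.76 FPKM on day 0, 21.1 on day 3 and 6.33 on day 5. AMH rose in preNC against ES cells (log2 1.27 ± 0.54) and fell in NC against preNC cells (log2 -1.74 ± 0.32), the step in which SOX9 rose. It overlaps MIR4321 in the table. NR5A1, a steroidogenic factor that acts with SOX9 on AMH, reached 0.387, and FGF9, a growth factor of the gonad, reached 0.585. Both rose in NC against ES cells.

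Genes that SOX10 activates gave counts in both directions. Of 8 tested crest receptor and autonomic genes, 2 rose and 4 fell in NC against ES cells, where 12.2% of all tested genes were higher and 14.7% lower. The median was -0.39 in log2(FPKM + 1), against -0.01 for all. In preNC against ES cells 3 rose and 1 fell of 8 (8.96% and 11.6% of all), and in NC against preNC cells 2 rose and 1 fell of 8 (5.93% and 6.68% of all). GFRA1, a co-receptor of RET, was at 0.264 FPKM on day 0, 0.347 on day 3 and 1.34 on day 5, and rose in NC against ES cells. ERBB3, the neuregulin receptor of crest and glia, was at 12.8, 2.86 and 3.22 and fell in NC against ES cells (log2 -1.99 ± 0.65). EDNRB, an endothelin receptor needed for melanocyte and enteric crest, was at 3.55, 0.0340 and 0.236. RET, a receptor of enteric crest, was at 2.83, 8.79 and 0.469, and CHRNB4, a nicotinic receptor subunit, was at 1.42, 0.639 and 0.321. EDNRB, RET and CHRNB4 fell in NC against ES cells. NGFR, a crest surface receptor also known as p75, was at 7.58, 18.5 and 11.7 and rose in preNC against ES cells.

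The melanocyte genes were mostly near 0, and 5 of 7 lay under an FPKM of 1 on every day. MITF, the master factor of melanocytes and a direct SOX10 target, was at 0.197 FPKM on day 0, 0.0260 on day 3 and 0.289 on day 5. The pigment enzyme genes DCT, TYR and TYRP1 reached at most 0.0414, 0.0170 and 0.300. PMEL, a melanosome protein, was the exception at 56.4, 137 and 116 and rose in NC against ES cells (log2 1.03 ± 0.39). The receptor gene KIT was at 8.26, 9.93 and 4.65 and fell in NC against ES cells. In all, 2 of 5 tested melanocyte genes rose and 1 fell in that comparison, where 12.2% of all tested genes were higher and 14.7% lower. The median was 0.24 in log2(FPKM + 1), against -0.01 for all. Of 3 tested in preNC against ES cells 1 rose (8.96% of all), and in NC against preNC cells 2 rose and 1 fell of 5 (5.93% and 6.68% of all). The 2 that rose in NC against preNC cells were MITF (log2 3.48 ± 1.83) and TYRP1, both under an FPKM of 1 on every day. When the statistic was given a normal distribution, 0 genes of this list were called higher and 0 lower in that step. TYRP1 also rose in NC against ES cells.

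Of 8 tested glial genes 3 were called higher and 3 lower in NC than in ES cells, where 12.2% of all tested genes were higher and 14.7% lower. The median was -0.02 in log2(FPKM + 1), against -0.01 for all. Of 8 tested in preNC against ES cells 2 rose and 2 fell (8.96% and 11.6% of all), and in NC against preNC cells 1 rose of 7 (5.93% of all). FABP7, a fatty acid binding protein of radial glia and glial precursors, was at 20.1 FPKM on day 0, 18.8 on day 3 and 56.0 on day 5. PMP22, a myelin protein whose gene overlaps MIR4731, was at 0.947, 5.48 and 6.82, and S100B, a glial calcium-binding protein, was at 0.203, 0.997 and 1.05. MBP, myelin basic protein, was at 4.17, 0.273 and 0.167 and fell in NC against ES cells (log2 -4.64 ± 0.70). EGR2 and MAG were the other two that fell, MAG to a listed value of 0 on day 5, against 0.281 on day 0. The connexin gene GJB1 and the Schwann cell precursor marker CDH19 reached at most 0.0426.

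**Figure D5:**
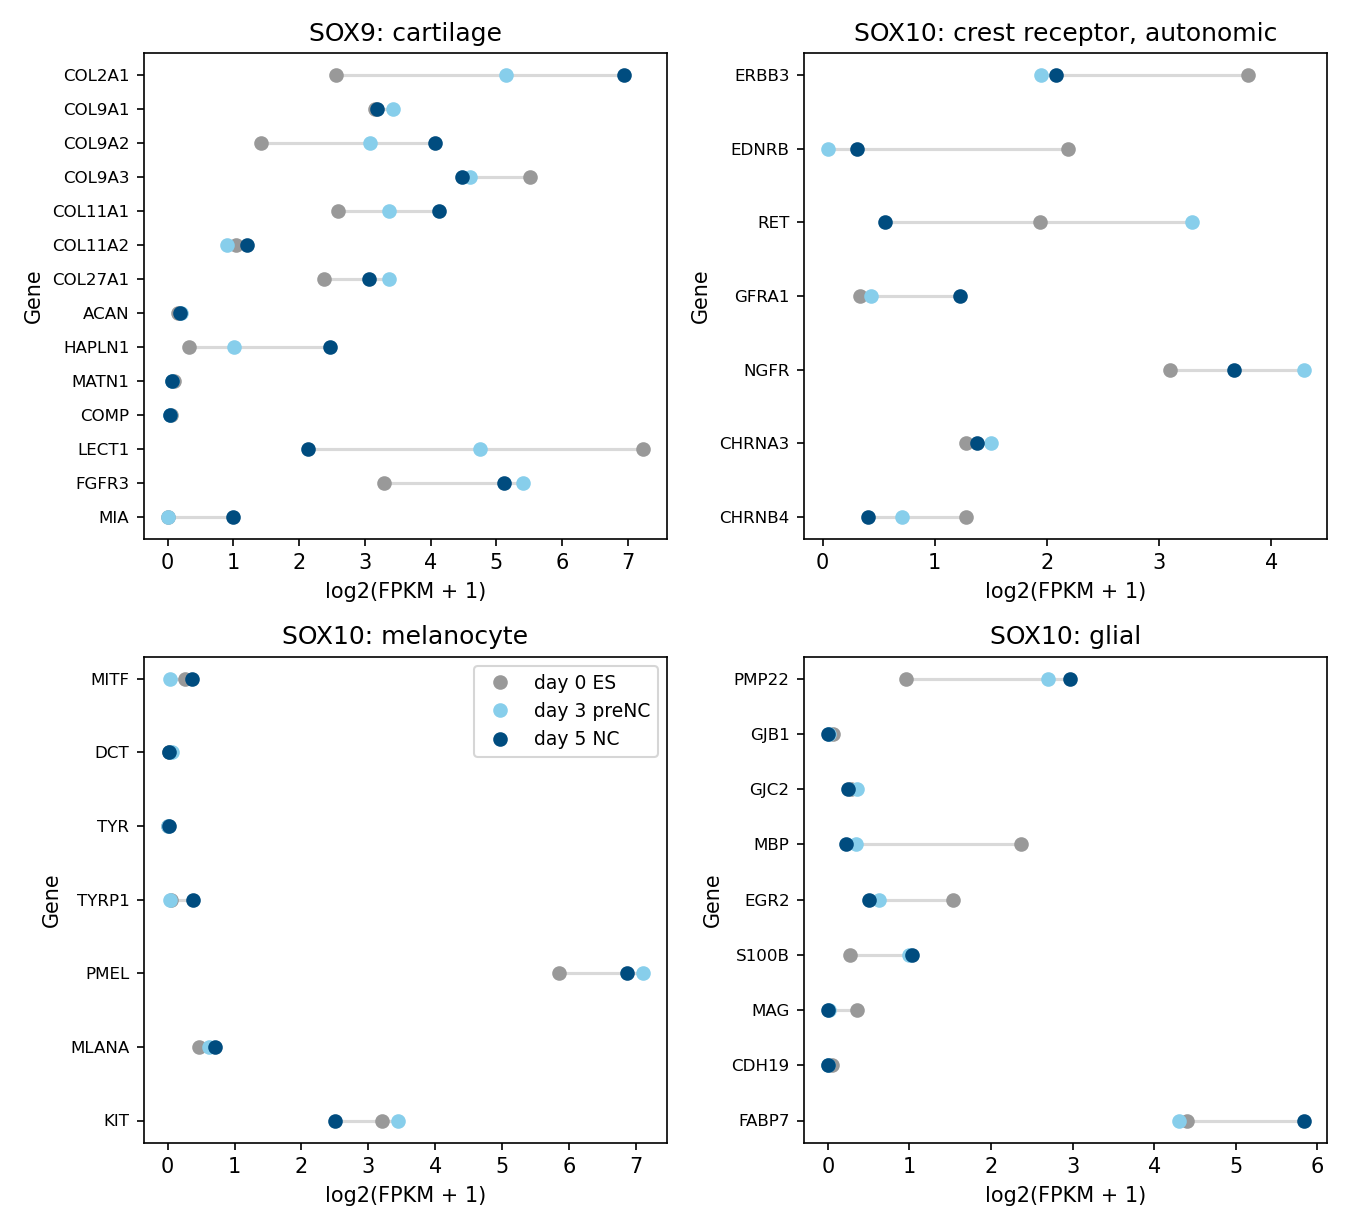
log2(FPKM + 1) (horizontal axis) of genes that SOX9 activates in cartilage and of SOX10 targets and markers in crest receptor and autonomic, melanocyte and glial lists (rows), by day, with some list members not shown. COL2A1 reaches 123 FPKM on day 5, while MITF, DCT, TYR and TYRP1 stay under 1 on every day.

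SOX9 is also made by neural progenitors, and markers of other cell types moved over the course. Of 6 neural progenitor markers, 3 rose and none fell in NC against ES cells (12.2% and 14.7% of all tested genes). Their summed FPKM was 22.6, 123 and 75.4 on days 0, 3 and 5. In NC against preNC cells, the step in which SOX9 was called, 2 of the 6 rose (PAX6 and FABP7) and 2 fell (DBX1 and SOX1). Of all tested genes, 5.93% rose and 6.68% fell in that step. PAX6, a neural progenitor factor that overlaps DKFZp686K1684 in the table, was at 0.393, 1.86 and 15.3. DBX1, a homeobox factor of neural progenitors, was at 0.282, 81.9 and 1.26. The 6 mesendoderm markers summed to 1.86, 2.42 and 1.62, and each lay under 1 on days 3 and 5. Neither of the 2 tested was called in NC against ES cells. Of 3 tested in each step, 1 rose in preNC against ES cells and 1 fell in NC against preNC cells (8.96% and 6.68% of all). Both calls were of T, at 0.134, 0.777 and 0.0566 FPKM. FOXA2 was at 0 on day 3 and SOX17 on day 5. The 6 nonneural ectoderm markers summed to 153, 9.37 and 12.9. EPCAM, an epithelial adhesion gene that embryonic stem cells also express, made up most of the day 0 value with an FPKM of 149.9, against 4.01 on day 3 and 1.35 on day 5. Without EPCAM the other 5 summed to 2.67, 5.35 and 11.6, so this gene sets the direction of the list. By the calls, 2 rose and 1 fell of 4 tested in NC against ES cells (12.2% and 14.7% of all tested genes). KRT8 and KRT18 in that list are at 0 with a failed estimate. The part of these cell types in the SOXE values was not tested.

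No other gene in the table overlaps a SOXE locus, and the neighbours differed in their course. The nearest to SOX9 were KCNJ2 at 1940977 bases and LOC100499467 at 276902 bases, on opposite sides. KCNJ2, a potassium channel gene, was at 0.243 FPKM on day 0, 0.0751 on day 3 and 1.12 on day 5. KCNJ2 fell in preNC against ES cells, where SOX9 had no call, and rose in NC against preNC cells as SOX9 did. The nearer LOC100499467 was at 0.331, 0.897 and 0.479. Unlike SOX9, it rose in preNC against ES cells and had no call in the other comparisons. LMF1, a lipase maturation factor gene whose locus lies 489 bases from that of SOX8, was at 2.58, 3.08 and 5.65. Like SOX8 it was called only in NC against ES cells (q = 0.0355 in the authors' deposited table). POLR2F, an RNA polymerase subunit gene, and C22orf23 lie 2999 bases from SOX10 and were called in no comparison. POLR2F was at 33.5, 29.6 and 21.4. On the other sides lay LOC146336 and SSTR5, 77102 bases from SOX8, and MIR4534, 4261 bases from SOX10. LOC146336 and MIR4534 were not tested in any comparison. SSTR5 was not tested in NC against preNC cells and was not called in the others. The strand setting of the counting is not given in the sources used here.

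The genes most like each member were sought by the distance between their pair of steps in log2(FPKM + 1), over 3 groups and 14430 genes. The members were not each other's nearest. SOX8 and SOX10 lay 0.47 apart, SOX9 and SOX10 1.27 apart, and SOX8 and SOX9 1.36 apart. SOX8 ranked 645 among the genes nearest to SOX10. Nearest to SOX9 were PROS1 (1.18, 2.00 and 9.91 FPKM on days 0, 3 and 5, at a distance of 0.08), IGFBP7, RFTN2, MUSTN1 and RIMBP2, the last at 0.17. IGFBP7 and MUSTN1 overlap other genes and were not called. Nearest to SOX8 were SCMH1, RNF103, KIAA1958, LOC400685 and SMARCE1, the last at 0.0178. Nearest to SOX10 were 1/2-SBSRNA4, EXOC5, FAM92A1, GSTA4 and SRR, the last at 0.0332. Of these, SCMH1, RNF103, 1/2-SBSRNA4, EXOC5 and SRR overlap other genes, and RNF103, 1/2-SBSRNA4 and SRR were not called. With a pseudocount of 0.1 in place of 1, SOX8 and SOX10 each kept 1 of their 5 nearest genes and SOX9 kept 0, so these names depend on that choice.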

How the data were processed

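Poly-adenylated RNA was measured in 6 libraries, 2 per group. Tools named in the submitters' processing notes are Cuffdiff 2.1.1, TopHat2 2.0.10 and TopHat, with the build hg19. Not given in the sources used here: annotation, read length, strand setting. Per the file headers, the deposited table gives 1 FPKM value per gene and group, with the authors combining the libraries. Its other columns hold a test statistic (treated as a score that the authors deposited). The authors also deposited a p-value and q-value for each row. The q-values equal a Benjamini-Hochberg adjustment over 48572 tested rows to within 5.25e-07. The depth per library is unknown, so no interval or floor was given. Of the FPKM sum, 21.9% to 27.0% lay in 3 small RNA genes.

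Only rows with status OK counted as tested. Log2 ratios were computed from FPKM, later over earlier day, and divided by the test statistic to give the implied standard error. Of 19793 genes matched to RefSeq, the locus width equalled the RefSeq length as end minus start in 1901 and as end minus start plus 1 in 253, so starts were read as counted from 0 and are printed from 1. The members and lists were chosen with earlier results of these data known. Named from each list were up to 6 called members with the largest change in log2(FPKM + 1), the other SOX genes at an FPKM of at least 1, the 5 genes nearest in course, the neighbouring genes, and members needed to make a count clear. Likeness used a pseudocount of 1. Alternatives were q below 0.01, a normal p, pseudocounts of 1 and 0.1, an FPKM filter of 1 and 2 scalings. The adjustment and the likeness search were tested on simulated data (Python 3.11.15, pandas 2.3.3, scipy 1.17.1). Some list members enter the counts but are not reported by name here.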

Additional observations from a re-analysis of the deposited data

How the results depend on the processing

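Of 54 member values under alternatives, all 54 kept their direction and 50 kept their side of the threshold. Much of this was fixed in advance. The q below 0.01 and the normal p used the unchanged ratio, and a pseudocount cannot reverse it, so only the scalings could change direction. Pseudocounts and scalings kept the original call, so only the q below 0.01 and the normal p could change a side. With q below 0.01 in the authors' deposited table, SOX10 in preNC against ES cells (log2 1.09) and SOX8 in NC against ES cells (log2 1.00) were no longer called, and both were also lost under the normal p of the test statistic. SOX9 kept its calls under both. With FPKM rescaled so that the genes other than the 3 small RNA genes had the same total on each day, the summed SOXE level was 10.01 on day 0, 15.6 on day 3 and 43.1 on day 5. Both leaving out those genes and setting a common total enter these values. With q below 0.01, higher genes numbered 946 in preNC against ES cells and 586 in NC against preNC cells, where lower genes numbered 619. Under the normal p, higher genes numbered 915 in preNC against ES cells, 530 in NC against preNC cells and 1238 in NC against ES cells. Of the 5 nearest genes, a pseudocount of 0.1 kept 1 for SOX8, 0 for SOX9 and 1 for SOX10. Of the counts per single list, 271 were equal or stayed within 1.5 times and 35 moved further, and the cause was not tested. The 271 include counts of 0 that stayed at 0, and any change to or from 0 is among the 35. No paired analysis was possible because the table gives 1 value per group, and for the same reason no replicate could be left out. The unknown depth limits what can be said of genes under an FPKM of 1.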

Other observations

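In the authors' deposited table the order of the p-values did not follow that of the test statistics for the members. SOX10 in preNC against ES cells had a test statistic of 2.63 and a p of 0.0093 in the authors' deposited table. SOX8 in NC against ES cells had a smaller statistic of 2.44 and also a smaller p of 0.00725 in the authors' deposited table. SOX8 and SOX9 in preNC against ES cells had nearly equal statistics of 1.16 and 1.15, with a p of 0.224 for SOX8 and 0.112 for SOX9 in the authors' deposited table. The largest p among all called genes there was 0.0101, so the SOX10 and SOX8 calls lie close to the border.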
